A study of Mus musculus with 2 samples.

Results

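The genes of the cytosolic ribosomal proteins were examined for open chromatin in mouse primary cells labelled as megakaryocyte progenitors. The members were the protein-coding genes of the GENCODE M21 annotation (mm10) whose symbols begin with Rps, Rpl, Rplp and a number, without the ribosomal S6 kinases and without annotated pseudogenes. This rule took in 85 of 21938 protein-coding genes: 3 genes of the ribosomal stalk, 30 of the small subunit, 43 of the large subunit, and 9 paralogues or other genes that share the symbol pattern. The rule used names only and no measured value. The study profiled 1 group, cells of adult male C57BL/6J mice aged 5 to 6 weeks, in 2 ATAC-seq libraries of 50000 cells each, replicate 1 and replicate 2. ATAC-seq inserts sequencing adapters into accessible DNA with a transposase, so that regions free of nucleosomes gain reads. Both libraries carry the same donor label, the label of replicate 1 names more than 1 sequencing instrument, and no untreated, mutant or other cell type stands beside them. Differences between the libraries therefore describe only the spread between these samples, which may be technical.

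The cytosolic ribosome joins a small subunit, which reads the mRNA, to a large subunit, which forms peptide bonds. Its proteins are needed in nearly equal amounts in every growing cell, and their mRNAs carry a run of pyrimidines at the 5′ end through which mTORC1 signalling and the protein LARP1 control translation. In blood formation, loss of 1 copy of a ribosomal protein gene in humans causes Diamond-Blackfan anaemia, and loss of RPS14 contributes to the anaemia of the 5q- syndrome.

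A promoter region was an open region of the deposited lists whose summit, its point of highest signal, lay within 1 kb of an annotated protein-coding start site. A promoter region was present at 81 of 85 members (95.3%, 95% Wilson interval 88.5% to 98.2%) in the conservative list that the authors made from both libraries, beside 60.2 percent of all protein-coding genes. All 76 stalk, small-subunit and large-subunit genes had one, and so did 5 of the 9 paralogues and other genes. The same 81 members had a promoter region in the separate list of replicate 2 and in that of replicate 1, beside 56.4 percent and 57.1 percent of all genes, and no member had one in a single library. The 4 members without a region also had none in the more permissive replicated list, in which 68.1 percent of all genes had one. Nearly all members were thus open, while the height of their signal was close to that of other open promoters: the median was 10.9 for the 81 members and 11.3 for the 13217 genes with a promoter region. The side of this small gap depended on the list, since in the replicated list, which adds weaker regions at other genes, the medians were 10.9 for members and 10.6 for all genes. Signal is the authors' value for each peak, and a region takes that of its strongest summit.

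The letters around several of these promoters are shown because they share a motif that few other promoters hold. TCTCGCGA, part of a palindrome known to be bound by the transcription factors BANP and ZBTB33, was found on either strand between 250 bases before and 50 bases after the main start site in 14 of 85 members (16.5%, interval 10.1% to 25.8%), beside 297 of 21853 protein-coding genes with an annotated coding start site (1.36%). The windows run from 100 bases before the start site to 25 bases from it on, in the direction of transcription, and capitals mark TCTCGCGA or its reverse complement TCGCGAGA. In Rpl10a, Rpl26, Rps6 and Rps28 both overlap as the full palindrome, and Rpl7a holds a single match. All letters are from RefSeq's GRCm38.p6 genome, the build of the files.
Rpl10a, chr17:28328468-28328592, plus strand: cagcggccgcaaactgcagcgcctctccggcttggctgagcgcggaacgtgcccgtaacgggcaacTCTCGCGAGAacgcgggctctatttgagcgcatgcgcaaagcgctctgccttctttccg
Rpl26, chr11:68901510-68901634, plus strand: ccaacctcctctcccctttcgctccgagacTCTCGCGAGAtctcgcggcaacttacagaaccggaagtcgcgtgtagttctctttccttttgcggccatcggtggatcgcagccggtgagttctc
Rps6, chr4:86857388-86857512, minus strand: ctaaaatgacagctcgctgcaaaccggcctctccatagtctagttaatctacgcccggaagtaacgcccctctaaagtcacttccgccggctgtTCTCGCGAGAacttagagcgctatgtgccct
Rps28, chr17:33824538-33824662, minus strand: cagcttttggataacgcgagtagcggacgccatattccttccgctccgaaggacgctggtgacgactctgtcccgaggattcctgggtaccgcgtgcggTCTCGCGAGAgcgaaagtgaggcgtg
Rpl7a, chr2:26910664-26910788, plus strand: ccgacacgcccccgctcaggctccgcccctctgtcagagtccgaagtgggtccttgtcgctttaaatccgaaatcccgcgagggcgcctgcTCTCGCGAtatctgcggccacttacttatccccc
In Rpl10a the palindrome began at position -34 from the start site, in Rpl26 at -70, in Rps6 at -6 and in Rps28 at -1.

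Other members with a match included Rpl17, Rpl23a, Rpl27a, Rpl4, Rps15a, Rps19 and Rps3a1. Genes of both subunits were among them, and Rps19, the gene most often mutated in human Diamond-Blackfan anaemia, held its match far upstream at -221. In 12 of the 14 members the match lay within 100 bp of the strongest open summit, at a median distance of 31 bp. In Rps6, whose protein is phosphorylated by the S6 kinases, the distance was 9.5 bp. In Rpl23a it was 3.5 bp. Most matches thus lay close to the most open base of the promoter, with Rps19 at 294 bp and Rpl4 at 266 bp as the 2 far ones. The search window surrounds the start site, as most summits do, so closeness is partly set by the window. Distances of other motifs were not compared. Promoter signal did not stand higher where the motif was present: the median was 10.1 in the 14 members with it and 11.0 in the 67 open members without it.

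The motif was less frequent in 2 other housekeeping complexes. It was found in 2 of 78 mitochondrial ribosomal protein genes (2.56%, interval 0.71% to 8.88%) and in 2 of 40 proteasome subunit genes (5.00%, interval 1.38% to 16.5%). The interval of the proteasome genes overlaps that of the members. Among genes with a promoter region, 270 of 13217 held the motif (2.04%). The members' promoters were also rich in CpG, with a median ratio of observed to expected CpG of 0.855 beside 0.549 over all genes, and the motif holds CpG itself. Among promoters with a ratio of at least 0.855, a comparator chosen after the shares were seen, 10 of 43 members held the motif (23.3%, interval 13.2% to 37.7%), beside 173 of 4630 genes (3.74%). No test of these shares was made, since a list of genes has no replicates, and a match says nothing of whether a factor was bound.

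**Figure D1:**
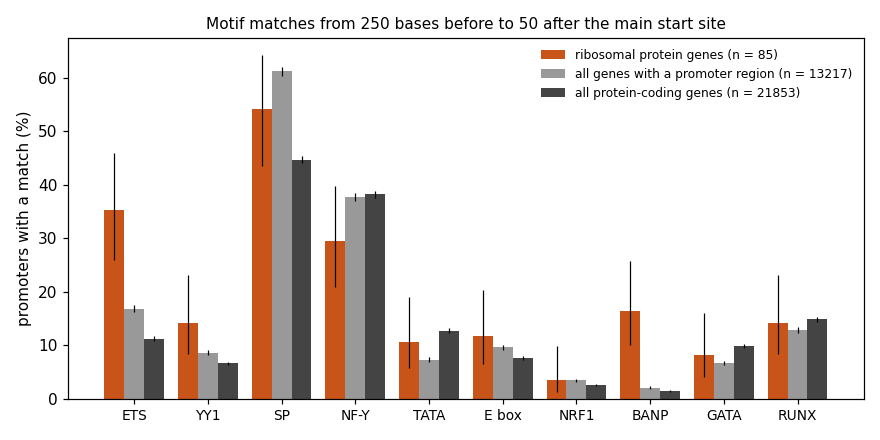
Share of promoters (%) with at least 1 match to each of 10 motifs on either strand, from 250 bases before to 50 after the main start site. Bars stand for ribosomal protein genes, all genes with a promoter region and all protein-coding genes, and lines are 95% Wilson intervals. ETS and BANP show the widest gaps between members and other genes. The ETS shares are 35.3% of members, 16.8% of genes with a promoter region and 11.2% of all genes. For BANP they are 16.5%, 2.04% and 1.36%.

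Of the other 9 motifs searched, CCGGAAG is the core of sites for ETS factors such as GABPA and FLI1. It was found in 30 of 85 members (35.3%), beside 11.2% of all promoters and 16.8% of those with an open region. At a CpG ratio of at least 0.855, the comparator used above, 15 of 43 members held it (34.9%, interval 22.4% to 49.8%). Of all 4630 genes with such a ratio, 21.9% did, so that the gap was narrower there. A high ETS share was no property of the cytosolic ribosome alone, since 38.5% of mitochondrial ribosomal protein genes and 32.5% of proteasome genes also held the motif. GCCATNTT, a core of YY1 sites, was in 14.1% of members, beside 6.59% of all promoters and 8.53% of those with an open region. Mitochondrial ribosomal protein genes, at 21.8%, and proteasome genes, at 22.5%, held it more often than members. GGGCGG, bound by SP factors, was in 54.1% of members, beside 44.7% of all promoters and 61.2% of those with an open region. CCAAT, the NF-Y box, was in 29.4% of members and 38.2% of all promoters. TATAAA was in 10.6% of members, beside 12.7% of all promoters and 7.26% of those with an open region. Within 75 bases of the strongest summit it was in 8.64% of the 81 open members (interval 4.25% to 16.8%) and in 1.91% of all 12036 promoter regions. The E box CACGTG was in 11.8% of members, beside 7.58% of all promoters and 9.57% of the open ones, and CGCATGCG, a site of NRF1, was in 3.53%, beside 2.55% and 3.40%. Motifs of the blood factors GATA1 and RUNX1 lay between both backgrounds: AGATAA was in 8.24% of members, beside 9.78% of all promoters and 6.61% of the open ones, and TGTGGT was in 14.1%, beside 14.9% and 12.8%.

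The start sites themselves are shown for members with high, low and absent promoter signal, because ribosomal protein mRNAs are known for beginning with C within a pyrimidine run. Each window holds 20 bases before the start site and 20 from it on, and capitals mark the unbroken run of C and T that contains the start site, where the start site is a C or T.
Rpl31, chr1:39367822-39367861, plus strand: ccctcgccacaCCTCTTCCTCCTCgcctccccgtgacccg
Rpl27, chr11:101442278-101442317, plus strand: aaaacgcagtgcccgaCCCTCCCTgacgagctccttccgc
Rpl36, chr17:56613396-56613435, plus strand: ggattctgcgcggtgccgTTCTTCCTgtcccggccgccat
Rps27rt, chr9:114982720-114982759, minus strand: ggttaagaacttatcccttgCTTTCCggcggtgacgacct
Rpl10l, chr12:66284382-66284421, minus strand: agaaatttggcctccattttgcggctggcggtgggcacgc
Rpl39l, chr16:10170208-10170247, plus strand: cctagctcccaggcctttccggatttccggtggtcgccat
Rpl3l, chr17:24727800-24727839, plus strand: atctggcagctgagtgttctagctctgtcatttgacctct
At Rpl31, Rpl27 and Rpl36 the annotated start fell inside runs of 13, 8 and 8 pyrimidines, and at Rps27rt inside a run of 6. At Rpl10l, Rpl39l and Rpl3l it fell on a purine. The open members printed here are those with a run. Among other members with high signal, the start of Rpl11, Rps27l, Rps19bp1 and Rpl9 also fell on a purine. At Rpl5 it fell on a C in a run of only 1.

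A pyrimidine start, a C followed by 3 more bases that are C or T, was found at 13 of 85 main start sites (15.3%, interval 9.16% to 24.4%), beside 3.59% of all protein-coding genes. A run of at least 8 pyrimidines that reached within 10 bases of the start site was present in 35.3% of members and 13.5% of all genes. At the base just before the start site, 80.0% of members and 65.6% of all genes had a pyrimidine, and at the start site 29.4% of members and 17.7% of all genes had a C. The annotated positions limit these shares: of 65 members found in the RefSeq promoter table, only 16 had the same start base in both annotations and 49 had starts within 50 bases. With RefSeq's start, 13 of those 65 members had a pyrimidine start. Counting any annotated start of the gene gave 30.6% of members and 8.04% of all genes.

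Promoter signal varied less among the members than among open promoters in general, with quartiles of 9.22 and 12.9 for members and 8.62 and 14.0 for all genes. Of the 81, only 9 (11.1%) were above the upper quartile of all open promoters, 14.0, and 13 (16.0%) were below the lower quartile, 8.62. The median member stood at percentile 46.5. Other housekeeping complexes stood higher, with a median of 13.7 for the 78 mitochondrial ribosomal protein genes and 14.1 for the 38 open proteasome genes of 40. The same order was seen in each library: in replicate 2 the medians were 10.6 for members, 13.3 for mitochondrial ribosomal protein genes and 13.7 for proteasome genes, beside 11.3 for all genes. In replicate 1 they were 10.3, 12.7 and 13.1, beside 10.6 for all genes. Signal in bulk cells cannot tell a promoter open in fewer cells from one less open in each cell.

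**Figure D2:**
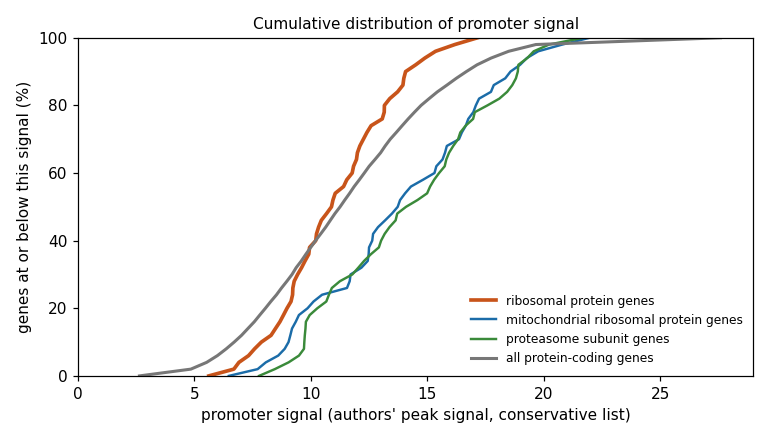
Cumulative share of genes (%) by promoter signal in the conservative list, for genes with a promoter region. The curve of the ribosomal protein genes (n = 81) reaches 100% at 17.2 and lies left of the curves of mitochondrial ribosomal protein genes (n = 78) and proteasome subunit genes (n = 38), while all protein-coding genes (n = 13217) extend to 27.6.

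The stalk, which recruits the GTPases of translation, held 1 high and 2 low promoters. Rplp0, its base, had a signal of 13.5 in replicate 2 and 13.2 in replicate 1. Rplp2 had 8.65 in replicate 2 and 8.53 in replicate 1, and its partner Rplp1 had 8.34 in replicate 2 and 7.69 in replicate 1. The acidic proteins P1 and P2, which bind P0 as dimers, thus had promoters below the base of the stalk in both libraries. All 3 strongest summits lay close together relative to their start sites, 89, 90 and 96 bp upstream.

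In the small subunit the median signal was 11.0 in the conservative list, and the highest value was 14.1, at Rps27. In the separate lists Rps27 stood at 13.6 in replicate 2 and 13.7 in replicate 1. Rps28, a protein near the mRNA exit, had 14.5 in replicate 2 and 11.9 in replicate 1, a gap of 0.29 on the log2 scale and among the widest of all members. Rps6 had 13.6 in replicate 2 and 13.3 in replicate 1, and Rps3a1 had 13.5 in replicate 2 and 12.8 in replicate 1. Rps18, a protein of the subunit's head, was among the lowest, at 7.18 in replicate 2 and 7.29 in replicate 1.

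In the large subunit the median was 10.2 and the range ran from 5.62 to 17.2. Rpl31, which lies beside the exit of the peptide tunnel, was the highest of all members, at 17.1 in replicate 2 and 15.5 in replicate 1. Its region spanned chr1:39367581-39368148, 568 bp with 1 summit 37 bp upstream of the start site. Rpl11 and Rpl5, which with 5S rRNA bind and inhibit the p53 ligase MDM2 when ribosome assembly fails, both stood high. Rpl11 had 15.1 in replicate 2 and 14.7 in replicate 1, and Rpl5 had 14.9 in replicate 2 and 13.7 in replicate 1. Rpl27 had 14.8 in replicate 2 and 14.3 in replicate 1. The lowest member was Rpl36, at 5.42 in replicate 2 and 5.50 in replicate 1, whose region chr17:56613223-56613575 was also the narrowest at 353 bp. Rpl35, another protein near the tunnel exit, had 7.79 in replicate 2 and 5.84 in replicate 1, the widest gap between the libraries at 0.42 on the log2 scale. Its strongest summit lay 433 bp downstream of the main start site. RefSeq's nearest start lay 493 bp from that site, so this position depends on the annotation.

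**Figure D3:**
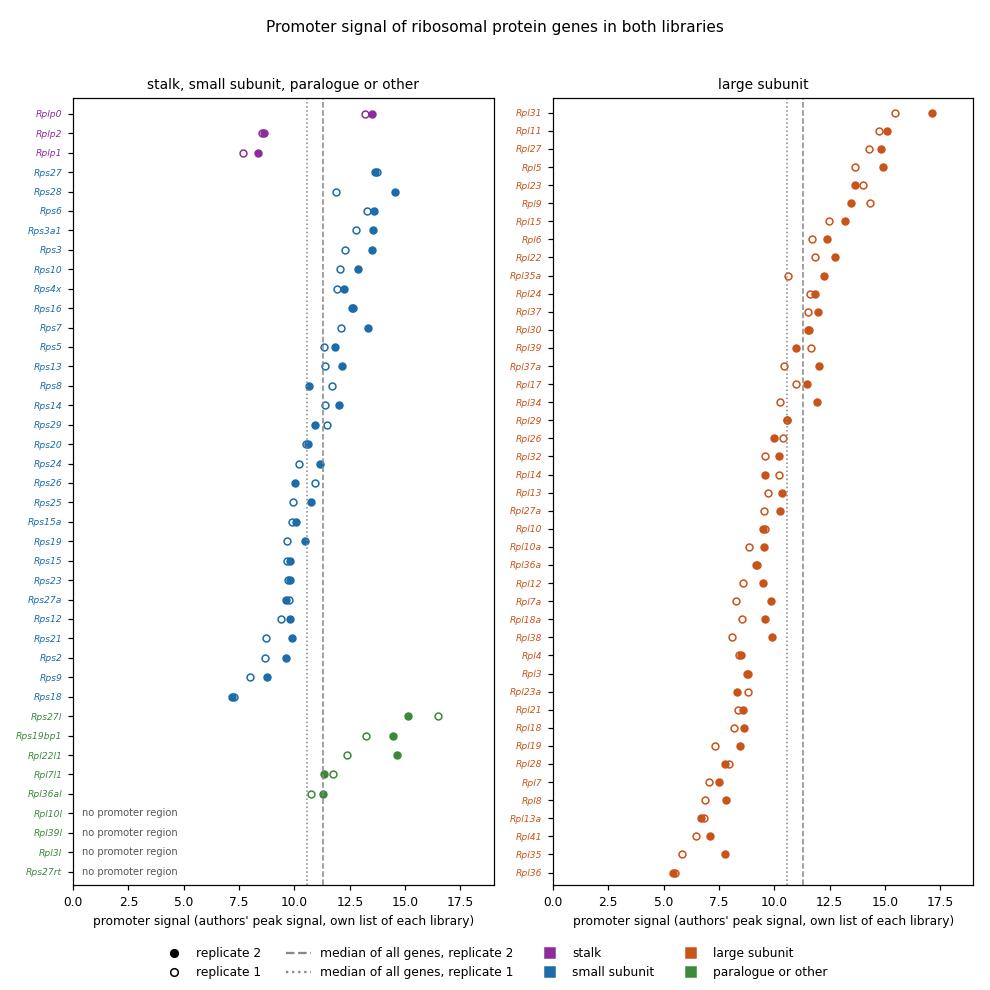
Promoter signal of the members reported here in the separate lists of replicate 2 (filled) and replicate 1 (open), sorted by conservative signal within each group, with the medians of all genes as vertical lines. Rpl31 is highest and Rpl36 lowest among the open members, and 4 paralogues have no promoter region in either library.

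Paralogues split into open and closed promoters. Rps27l, a paralogue of Rps27 known as a p53 target, had 15.1 in replicate 2 and 16.5 in replicate 1, above Rps27 at 13.6 and 13.7 in the same libraries. Rpl22l1 had 14.7 in replicate 2 and 12.4 in replicate 1, and Rpl22, its partner that is needed for the development of αβ T cells, had 12.7 in replicate 2 and 11.8 in replicate 1. Rpl7l1 had 11.4 in replicate 2 and 11.8 in replicate 1, above Rpl7 at 7.51 in replicate 2 and 7.06 in replicate 1. Rpl36al, an autosomal copy of the X-linked Rpl36a, had 11.3 in replicate 2 and 10.7 in replicate 1, against 9.16 in replicate 2 and 9.23 in replicate 1 for Rpl36a. In these 4 pairs the paralogue stood above its canonical partner in both libraries. Rps19bp1, which encodes a binding partner of Rps19 and of the deacetylase SIRT1 and is no ribosomal subunit, had 14.4 in replicate 2 and 13.2 in replicate 1.

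The 4 members without a promoter region were all copies of canonical genes, and 3 of them are known for expression in particular tissues. Rpl10l, a retrogene used in male meiosis, lay 461.9 kb from the nearest open region of the conservative list. Rpl39l, best known from male germ cells, had its nearest region 22.6 kb away, at the start of Atf7ip2. Rpl3l, the striated muscle paralogue of Rpl3, had an open region 3.378 kb upstream, which lay 36 bp from a start site of Ndufb10, a subunit gene of respiratory complex I. Rps27rt, an intronless copy of Rps27, had its nearest region 4.283 kb away, 113 bp from a start site of Osbpl10. Their canonical partners were open: Rpl10 had 9.51 in replicate 2 and 9.58 in replicate 1, and Rpl39 had 11.0 in replicate 2 and 11.7 in replicate 1. Rpl3 had 8.82 in replicate 2 and 8.75 in replicate 1.

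Genes outside the symbol rule gave a similar picture. The further ribosomal protein genes Rpsa, Rack1 and Fau had promoter signals of 10.6, 10.1 and 9.07 in the conservative list. All 14 listed translation factors and other genes with pyrimidine-start mRNAs were open, beside 60.2 percent of all protein-coding genes. Their median was 11.8. The range ran from 5.24 at Eef2, the elongation factor that moves the ribosome along the mRNA, to 17.5 at Eif3h, a subunit of an initiation complex. All 14 listed ribosome assembly genes were open as well, with a median of 11.9, and so were all 10 genes of RNA polymerase I and of growth control, with a median of 10.4.

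The mouse orthologues of 21 genes known from Diamond-Blackfan anaemia were all open. Their median signal was 12.3, beside 9.94 for the other 55 stalk and subunit genes, which put the median gene of each list at percentiles 59.9 and 37.3 of all open promoters. The highest were Rpl31, Rpl11 and Rpl27, described above, and Rpl18 and Rpl35 were the lowest. Rpl18 had 8.65 in replicate 2 and 8.18 in replicate 1, in a region 2740 bp upstream of its main start site, while the region at that site itself had a conservative signal of 6.97. Rps19 had 10.5 in replicate 2 and 9.69 in replicate 1. Rps14 had 12.0 in replicate 2 and 11.4 in replicate 1. The lists overlapped widely in signal, from 6.89 to 17.2 for the orthologues and from 5.62 to 14.5 for the other genes.

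Strongest regions of members were placed more tightly at the main start site than those of other genes. The strongest summit lay within 150 bp of the main start site in 71 of 81 members (87.7%), beside 59.8% of all genes with a promoter region. The strongest region could lie at any start site of a gene, and one at another start site counts as far here. The summit lay within 1 kb of the main start site in 80 of 81 members and in 11516 of 13217 genes. Part of the gap is therefore set by the choice of start site. Mitochondrial ribosomal protein genes, at 84.6%, and proteasome genes, at 81.6%, showed the same placement. The median position was 35 bp upstream in members (quartiles -84 and -3) and 49 bp upstream in all genes (quartiles -143 and 15). Width differed little, with a median of 898 bp in members and 876 bp in all genes. A single summit was present in 25.9% of members and 28.0% of all genes. Besides Rpl18, the far summits included Rpl7, 517 bp upstream in the widest region of 1903 bp, and Rps25, 492 bp downstream of the main start site. RefSeq's nearest start lay 575 bp from that site of Rps25, so its summit position depends on the annotation.

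**Figure D4:**
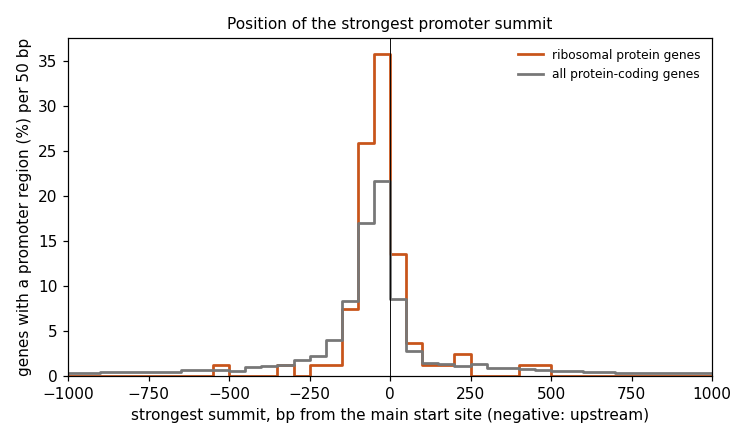
Position of the strongest promoter summit relative to the main start site, as the share (%) of genes with a promoter region in each 50 bp. The ribosomal protein genes (n = 81) gather within 150 bp of the start site (87.7%), more than all protein-coding genes (n = 13217, 59.8%). Only the 80 members and 11516 genes with that summit within 1000 bp of the main start site are drawn.

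Members split by gene structure had close median promoter signals. The 29 members that host small nucleolar RNAs in their introns had a median of 10.2, and the 52 open members that host none had 10.9. The 10 members with a divergent protein-coding start within 1 kb, such as Rpl9 with Lias and Rpl15 with Nkiras1, had a median of 10.6, beside 10.9 for the 71 open members without one. Across the 81 members, which share the same libraries, Spearman's rho of signal was 0.06 with GC content of the promoter, -0.13 with the CpG ratio, 0.08 with region width and 0.04 with the number of distal regions.

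The libraries ranked the members alike. The log2 difference of replicate 2 minus replicate 1 had a median of 0.06 and an SD of 0.10 over the 81 members, beside a median of 0.09 and an SD of 0.14 over the 12079 genes open in both. It was above 0 in 59 of 81 members (72.8%) and in 77.9% of all genes, so that members followed the general shift. After Rpl35 and Rps28, the widest gaps were at Rpl38, with 9.88 in replicate 2 and 8.09 in replicate 1, and at Rpl7a, with 9.85 in replicate 2 and 8.27 in replicate 1. With 1 library on each side no single gap was tested.

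Away from promoters, members had somewhat more open regions around them than the average gene. A mean of 5.62 distal regions, open regions over 1 kb from any protein-coding start site, lay within 50 kb of the 5′ end of a member, beside 4.20 for all protein-coding genes. In replicate 2 the means were 4.06 and 3.03, and in replicate 1 they were 4.01 and 3.09. No distal region was found at 4 of 85 members (4.71%) and at 18.01% of all genes. The 4 were Rpl10l and Rpl39l, which also lacked a promoter region, and Rpl7 and Rps27, which had one. Proteasome genes were similar to members, with a mean of 5.28 distal regions and none at 5.00%. Mitochondrial ribosomal protein genes had none at 1.28%, but their mean of 4.63 was closer to that of all genes. It was 3.38 in replicate 2 and 3.38 in replicate 1. Most of the 465 distinct distal regions were closer to another gene, and 149 (32.0%) had a member as the nearest gene.

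**Figure D5:**
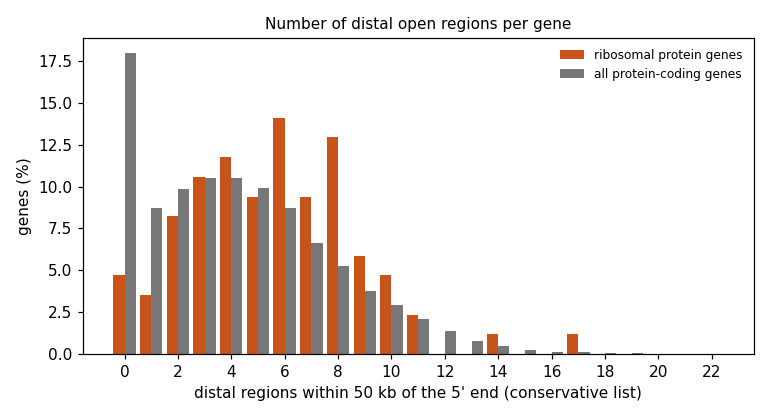
Number of distal open regions within 50 kb of the 5′ end, as the share (%) of 85 ribosomal protein genes and of 21938 protein-coding genes. No distal region was found at 4.71% of members and 18.01% of all genes, and Rps14 with 17 regions is the member farthest to the right.

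The gene with the most distal regions was Rps14 with 17. Its annotated 5′ end lies 27498 bp from its main start site, and around the main start site it had 12. Rpl22 had 14, Rpl14 and Rpl32 had 11 each, and Rpl26 had 10, as had Rpl29, Rps16 and Rps3. Neighbouring members share such regions. Rps2 and the closed Rpl3l, 9.704 kb apart, had 4, and Rpl36al and Rps29, 24.9 kb apart, had 1.

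Distal regions near members had a median signal of 7.78, beside 8.53 for all distal regions within 50 kb of a gene, and 281 of 465 (60.4%) were found in the separate lists of both libraries. The strongest ones with a member as nearest gene lay 44.7 kb from Rps23, with 20.2 in replicate 2 and 17.1 in replicate 1, and 25.2 kb from Rps20, with 16.5 in replicate 2 and 19.2 in replicate 1. A region 16.6 kb from Rps3 had 18.6 in replicate 2 and 15.3 in replicate 1, and one 13.9 kb from Rps26 had 17.8 in replicate 2 and 15.8 in replicate 1. These distal signals exceeded the promoter signals of the same 4 genes, which ranged from 9.95 at Rps23 to 13.5 at Rps3 in the conservative list. Within 75 bases of the summit, AGATAA was found in 14.8% of distal regions near members and in 13.7% of all distal regions, and TGTGGT in 19.1% and 21.6%. TCTCGCGA was in 0 of 465 distal regions near members, which allows a share of up to 0.82% by the Wilson interval, and in 0.02% of all 42353, against 16.0% at the members' promoter summits.

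A second distal region of Rps23, chr13:90939258-90940026, is shown as an example with AGATAA, the motif of GATA factors, in capitals. It lay 16.5 kb from the start site of Rps23, with 16.6 in replicate 2 and 15.8 in replicate 1, and the window holds 151 bases centred on the summit.
Rps23 distal, chr13:90939344-90939494, plus strand: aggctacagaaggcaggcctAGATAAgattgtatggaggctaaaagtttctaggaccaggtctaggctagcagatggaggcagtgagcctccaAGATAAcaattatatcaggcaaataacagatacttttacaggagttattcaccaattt
It holds 2 matches to AGATAA and none to TGTGGT or CCGGAAG.

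Ribosomal protein mRNAs have left many processed pseudogenes in the mouse genome. Of 292 such copies annotated in GENCODE, 16 (5.48%, interval 3.40% to 8.71%) had an open region within 1 kb of the 5′ end, beside 5.30 percent of all 10236 processed pseudogenes, so that their share was that of the background. Of the 15 over 1 kb from any protein-coding start site, 13 had the strongest summit more than 100 bp from the copy's 5′ end. At Rpl34-ps1 the summit lay 702 bp downstream, past the copy's 3′ end (signal 17.3), and at Rpl5-ps2 749 bp upstream (signal 15.9). At Rps4l and Rpl31-ps8 it lay 42 and 44 bp upstream, with signals of 11.6 and 6.26.

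The labels of the cells, which also carry the code CFU-M without explaining it, were checked on promoter regions of marker genes. A region was present at 12 of 20 megakaryocyte markers, 6 of 8 erythroid, 6 of 8 granulocyte and monocyte and 3 of 7 lymphoid markers in the conservative list, beside 60.2 percent of all genes. In the replicated list the counts were 17 of 20, 6 of 8, 8 of 8 and 4 of 7, beside 68.1 percent of all genes. Gata1, Itga2b, Pf4 and Gp1ba were open in both libraries, while 8 markers, among them Vwf, Selp, Fli1 and Ppbp, had no region within 1 kb of a start site in the conservative list. The erythroid genes Epor and Klf1 and the myeloid genes Mpo and Elane were open in both libraries too, and the B and T cell genes Cd79a, Cd3e and Cd4 had none in the conservative list. Among the lymphoid markers that were open, Il7r had 14.4 in replicate 2 and 13.7 in replicate 1, the highest conservative signal of all markers, and Nkg7 had 7.28 in replicate 2 and 6.10 in replicate 1, while Rag1 was open in the conservative list but in neither separate list. Promoter regions alone did not set the megakaryocyte markers apart from those of other myeloid lineages, and the part of such cells in the members' signal was not tested. The separate lists hold 60098 regions for replicate 2 and 61735 for replicate 1, and the number of reads behind them is unknown.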

How the data were processed

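The deposited files are peak lists without read counts, and there is 1 group. ATAC-seq peaks on mm10 were deposited per library and for both libraries together, and no source used here names the aligner or peak caller. The authors' deposited signal value per peak was used for all levels, and the deposited −log10 p-value was read only to describe the lists. Peaks with the same interval were merged into 1 region with the signal of its strongest summit (pandas 2.3.3, numpy 2.4.6), and a gene took its strongest region whose summit lay at most 1 kb from an annotated coding transcript's start. The main start site is that of the principal transcript. Sequences were read with pysam 0.24.0 and samtools 1.23.1. The region assignment was tested on simulated data. Shares have 95% Wilson intervals (scipy 1.17.1), which cover counting error only. With no contrast between groups no test was made, and members stand beside all protein-coding genes. The members and lists were chosen with earlier results of these data known. Named genes are all members without a promoter region, the 4 highest and 2 lowest of each group, the extremes of the Diamond-Blackfan list with Rps14, the members with most or no distal regions, the widest gaps between libraries, neighbours and paralogue pairs. Others, among them the members with a TCTCGCGA match, the far summits and the strongest distal regions, were named after their values were seen. Alternatives were other lists, windows, start sites and each library alone. The other lists from both libraries gave members an identical promoter count, median signal, width and summit position, so they are no separate checks of these values. Some genes that the rule names are not reported here, although counts and medians include them.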

Additional observations from a re-analysis of the deposited data

How the results depend on the processing

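Of 73 alternatives over 18 results, 48 were classed as the same, 25 as moved and 0 as reversed. These classes concern the members' own values. They do not count a change of side beside other genes, which occurred for the median signal in the replicated list and for motifs given below. Leaving out 1 library gave a median promoter signal of 10.3 to 10.6, a width of 778 to 815 bp, a summit position of -34 to -31 bp and a mean of 4.01 to 4.06 distal regions. With the stronger 50% of regions the median signal was 11.8 and the distal mean 2.15, and 65 of 85 members kept a promoter region beside 43.8% of all genes. Without the paralogues the median signal was 10.5. With the nearest start site the summit position was -30 bp. The distal mean was 5.59 in the series-level IDR list, 9.54 in the replicated list, 9.51 in the pseudoreplicated list, 2.14 within 20 kb, 10.4 within 100 kb, and 5.56 around main start sites, chosen after seeing the data; for all genes it was 1.68 within 20 kb and 8.29 within 100 kb. Any annotated start raised the share of pyrimidine starts to 30.6%. Around the promoter summit the E box share was 4.94%, the GATA share 3.70% and the RUNX share 4.94%. All promoter regions had 6.17%, 3.01% and 7.54%. In the window used for the main shares, members had 11.8%, 8.24% and 14.1%, beside 9.57%, 6.61% and 12.8% of genes with a promoter region. Beside open promoters, members thus turned from above to below for the E box and RUNX, and stayed above for GATA. From 100 bases before to 50 after the start site the GATA share was 1.18% and the RUNX share 5.88%, in a shorter window. Retrocopies with a region numbered 26 in the replicated list and 8 within 0.5 kb. No paired analysis was possible because there is only 1 group. Depth limits could not be set, since the lists give no read counts, and an absent region may be one below the authors' threshold.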
